A study of Mus musculus with 36 samples.

Results

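Brains of Tet1 knockout (KO) embryos were compared with brains of wild type (WT) embryos from dams on the folic acid-depleted diet, and the members were chosen by the genotype and diet in their labels. These were 7 of the 36 libraries of the series, 5 labelled KO and 2 labelled WT at 0.1 ppm folic acid (FA). All embryos were of the strain 129S6.cg Tet1tm1Koh, which carries a germline insertion at the Tet1 start codon, so that full-length Tet1 is lost in all tissues. They came from HET dams kept for weeks on their diet before mating, which also held the antibiotic succinyl sulfathiazole. Each library was made from 1 brain at E11.5, cut from the front of the forebrain to the hindbrain above the otic vesicle, and embryos had been picked by somite count and sex within litters. Litter TP34 gave KO replicate 1 and WT replicate 1, both labelled male and norm. Litter TP50 gave KO replicates 3 and 4, labelled female and NTD (neural tube defect), together with WT replicate 2, labelled female and inHB. KO replicate 2 (TP35, female, inHB) and KO replicate 5 (TP54, male, norm) had no WT littermate in the set. The 3 ppm diet (5 KO, 4 WT) and the 30 ppm diet (6 KO, 3 WT) served for comparison. KO replicate 1 of 30 ppm is KO in its title but HET in the study's list of embryos.

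TET1 is a dioxygenase that oxidises 5-methylcytosine, the first step of active DNA demethylation. It binds CpG-rich DNA, and CpG islands at gene starts are mostly free of methylation in any tissue, while DNA between genes is mostly methylated. Folate carries the one-carbon units from which the methyl donor S-adenosylmethionine is regenerated, and both folate supply and Tet1 are linked to closure of the cranial neural tube. The assay, oxidative bisulfite RRBS, cuts DNA at MspI and TaqI sites and reads 5-methylcytosine alone at single CpGs, so a level is the percentage of reads that were methylated. A level in a whole brain is a mean over its cells, and a change in the mix of cell types cannot be told apart from a change within cells.

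The sequences below were chosen because they lie in the promoters with the largest gain in KO brains and hold measured CpGs that were higher in KO. At Sycp2l these are 4 of 21 measured CpGs. Capitals mark the CpGs measured at least 5 times in all 7 libraries. Each is read from GRCm38 (mm10) in the direction of the gene. The Tmem233 stretch (chr5:116083016-116083165, minus strand) is coding sequence, 79 to 228 bases after the gene start. The Trim58 stretch (chr11:58640472-58640631, plus strand) is coding sequence, 7 to 166 bases after the start. The stretch in the Prm2 window (chr16:10796639-10796729, minus strand) lies at -595 to -505 from the start of Prm2, in coding sequence of the neighbouring gene Prm1. The Sycp2l stretch (chr13:41114192-41114290, plus strand) lies at -115 to -17 from the gene start, and the Lhcgr stretch (chr17:88791775-88791887, minus strand) is partly coding, 103 to 215 bases after it.
Tmem233: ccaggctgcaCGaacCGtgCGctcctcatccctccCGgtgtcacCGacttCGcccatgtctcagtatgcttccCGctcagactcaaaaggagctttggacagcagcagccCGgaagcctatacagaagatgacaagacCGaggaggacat
Trim58: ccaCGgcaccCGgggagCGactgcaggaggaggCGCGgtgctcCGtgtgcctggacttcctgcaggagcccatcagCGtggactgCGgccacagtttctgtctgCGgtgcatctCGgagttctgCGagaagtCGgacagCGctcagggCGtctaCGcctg
Prm2: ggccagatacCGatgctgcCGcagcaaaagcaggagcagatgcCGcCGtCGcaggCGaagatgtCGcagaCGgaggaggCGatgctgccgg
Sycp2l: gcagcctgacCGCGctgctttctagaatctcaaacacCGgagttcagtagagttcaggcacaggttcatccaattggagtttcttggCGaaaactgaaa
Lhcgr: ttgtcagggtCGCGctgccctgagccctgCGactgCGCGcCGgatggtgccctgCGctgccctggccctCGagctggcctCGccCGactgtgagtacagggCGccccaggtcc

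Over the 9 CpGs in capitals of the Tmem233 stretch the levels were 63.3, 68.0, 74.3, 77.6 and 73.5% in KO replicates 1 to 5, and 7.94 and 17.0% in WT replicates 1 and 2. Over the 15 CpGs of the Trim58 stretch they were 69.6, 74.8, 64.2, 75.1 and 68.0% in KO, 1.73% in WT replicate 1 and 37.8% in the library labelled WT replicate 2. Over the 11 CpGs of Lhcgr the KO brains had 81.3, 75.7, 79.0, 76.5 and 73.1%, against 14.6 and 44%. KO brains were thus methylated at most reads of each stretch and lay above both WT libraries, but the library labelled WT replicate 2 was closer to them at Trim58 and Lhcgr than WT replicate 1 was. The 9 capitals in Prm1 had 54.1 to 71.8% in KO and 16.5 and 16.0% in WT, and the 4 in Sycp2l 71.9 to 87.1% against 15.6 and 35%. Over all 21 measured CpGs of the Sycp2l window the WT libraries read higher, at 29.9 and 51.3%.

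The genotype labels were checked at Tet1 first, with CpGs chosen in the 3 ppm embryos alone. At 3 CpGs inside Tet1 (chromosome 10, positions 62884019, 62884999 and 62885446) every KO embryo on 3 ppm lay above every WT embryo, with at least 50 points between the group means. At the first of them the 0.1 ppm KO libraries read 69.6 to 96.2% on 9 to 26 reads, and WT replicate 1 read 6.25% on 16 reads, with 1.11 to 28.3% as its 95% interval by Wilson's method. A level of 40.0% on 15 reads (19.8 to 64.3%) was read in the library labelled WT replicate 2, and HET replicates 1 and 3 of this diet read 69.2% and 32.0%. At the other positions that library read 61.1% and 51.9%. WT replicate 1 read 33.3% and 28.6% there, and the lowest KO library 83.3% and 87.5%. HET replicate 1 read 62.5% and 85.7%, and HET replicate 3 read 50% and 57.1%. At the last position HET replicate 1 was thus close to the lowest KO library. On 3 ppm, 12 further CpGs of chromosome 10 (68.1 to 69.2 Mb) gave reads in all KO embryos and in no WT embryo. The KO libraries on 0.1 ppm had reads at 10 to 12 of them, HET replicates 1 and 3 at 9 and 11, WT replicate 1 at 0 and the library labelled WT replicate 2 at 7. Over 9540 tiles chosen for higher levels in KO on 3 ppm, WT replicate 1 had a mean level of 43.9%, the library labelled WT replicate 2 49.8%, the HET libraries 49.9 and 50.4%, and the KO libraries 61.6 to 62.7%. The Tet1 values of the library labelled WT replicate 2 lay between WT replicate 1 and the KO libraries and so went against its label. However, the Wilson intervals of the 2 WT libraries overlapped at all 3 CpGs. The 12 further CpGs lie outside Tet1 and do not read its allele itself. The study's list of embryos also has this library as WT, and it was kept under that label. The mean difference, the numbers of hyper and hypo regions and the interaction are given with and without it. The classes of level, distance and CpG content and most named gains are given with it only. On 30 ppm, the library labelled KO replicate 1 read 45, 54.2 and 50% at these 3 positions, where the other KO libraries read 69.2 to 100% and WT replicates 1 and 3 read 0 to 53.8%. The library labelled WT replicate 2 of 30 ppm read 36, 62.5 and 40.4%. Over 9435 tiles chosen in the same way, these libraries had mean levels of 47.2 and 50.8%, the HET libraries of 30 ppm 47.5 to 50%, the other KO libraries 59.9 to 61.1% and the other WT libraries 43.2 and 44.4%. Both went against their titles, while the study's list of embryos has the first as HET and the second as WT. Values on 30 ppm are given with and without them. Because they were singled out by levels at CpGs and tiles that were higher in KO on 3 ppm, larger differences without them follow in part from that choice. The tile from 62884001 to 62885000, which holds CpGs of this check, had 85.9 to 91.9% in KO and 34.4 and 49.0% in WT. The Tet1 promoter window itself was not measured.

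The 7 libraries held 25795664 to 46925169 CpG calls, a mean coverage of 12.6 to 22.1 reads per listed CpG, and 1155051 autosomal CpGs covered at least 5 times in each. The promoters of 4 neural progenitor markers (Sox1, Sox2, Pax6 and Nes) had 0 to 1.47% methylation in all 7 libraries, but so did Tal1 of blood (0.488 to 0.768%) and Pdgfra of mesenchyme (0.524 to 0.974%), so promoter levels did not separate the labelled tissue from other cell types. Of the other mesenchymal markers, Twist1 was at 0.452 to 0.98%. Col1a1, a fibrillar collagen chain, was at 19 to 31.9% in KO and at 5.88 and 8.51% in WT (difference 18.0 points over 3 CpGs, quasi-binomial F test, adjusted p = 0.0171). No promoter of the endothelial markers was measured.

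Mean methylation was higher in KO brains over the CpGs that RRBS covered in every library, which are a part of the genome. The mean level over the shared CpGs was 38.25, 38.25, 37.98, 37.87 and 38.37% in KO replicates 1 to 5 and 34.95 and 35.85% in WT replicates 1 and 2. The groups did not overlap, and their means differed by 2.74 points, with an SD of 0.207 points among the 5 KO brains and 0.638 points among the 2 WT libraries. The exact permutation test over the 21 relabellings of the embryos gave p = 0.0476, two-sided, the smallest value that 5 embryos against 2 allow. With the CpGs of each embryo in place of the shared ones the difference was 3.41 points (exact permutation p = 0.143). Without the library labelled WT replicate 2 the difference was 3.26 points, and without WT replicate 1 it was 2.30 points. Within litter TP34, KO replicate 1 exceeded WT replicate 1 by 3.29 points. Within litter TP50, KO replicates 3 and 4 exceeded the library labelled WT replicate 2 by 2.13 and 2.02 points. The embryos labelled NTD, KO replicates 3 and 4, had the lowest means of the 5 KO brains but shared litter TP50. Labelled phenotype and litter cannot be told apart here.

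The gain was largest at CpGs that were partly methylated without the knockout. CpGs were sorted by their mean level in the 4 WT embryos of the 3 ppm diet, which took no part in the comparison. Where that level was 10 to 30% (25308 CpGs), the KO brains had 38.5 to 40%, WT replicate 1 had 20% and the library labelled WT replicate 2 24.5%, a difference of 17.1 points. Where it was 30 to 70%, KO brains exceeded WT by 12.3 points (69.2% ± 0.526, SD, against 56.9% ± 4.46). In both classes the spread among the KO brains was small, and the library labelled WT replicate 2 lay above WT replicate 1. At CpGs under 10% (636384 CpGs) the levels were 1.85 to 2.15% in KO and 0.971 and 0.977% in WT, a difference of 1.03 points. At CpGs of 70 to 90% the difference was 4.39 points and above 90% it was 1.55 points. KO brains exceeded both WT libraries in all 5 classes, each with exact permutation p = 0.0476, the smallest possible, and adjusted p = 0.0476 over the 11 classes of level and distance.

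**Figure D1:**
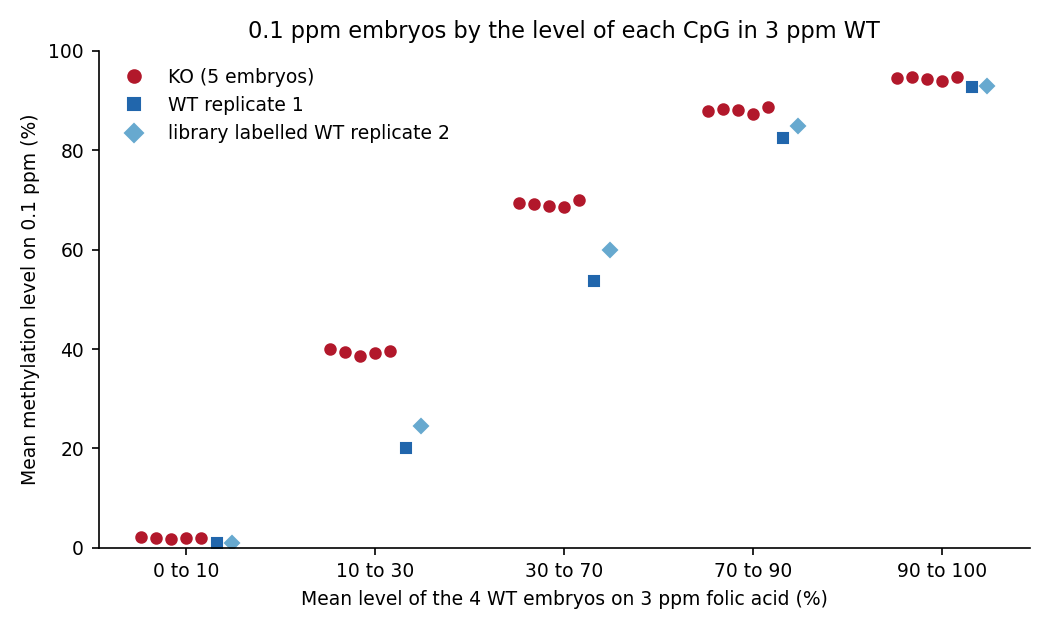
Mean methylation level (%) of each 0.1 ppm embryo (points; circles KO, square WT replicate 1, diamond the library labelled WT replicate 2) in 5 classes of CpGs, sorted on the horizontal axis by the mean level of the 4 WT embryos on 3 ppm. KO and WT lie farthest apart at 10 to 30%, by 17.1 points, and closest under 10% and above 90%, by 1.03 and 1.55 points.

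By position, the smallest difference lay at gene starts. Within 0.5 kb of the nearest start of a protein-coding gene (370532 CpGs) the levels were 2.64 to 2.89% in KO brains and 2.05 and 2.08% in WT, a difference of 0.705 points. The difference was 1.91 points at 0.5 to 1 kb, 3.22 points at 1 to 2 kb and 3.87 points at 2 to 5 kb. At 5 to 20 kb, KO brains had 62.2 to 63.0% and WT 57.6 and 59.1%, the largest difference of the distance classes at 4.28 points, and beyond 20 kb it was 3.99 points. In every class all 5 KO brains lay above both WT libraries (exact permutation p = 0.0476, adjusted p = 0.0476). The group means within 0.5 kb were 2.77% ± 0.0939 (SD, n = 5) in KO and 2.07% ± 0.024 (n = 2) in WT.

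**Figure D2:**
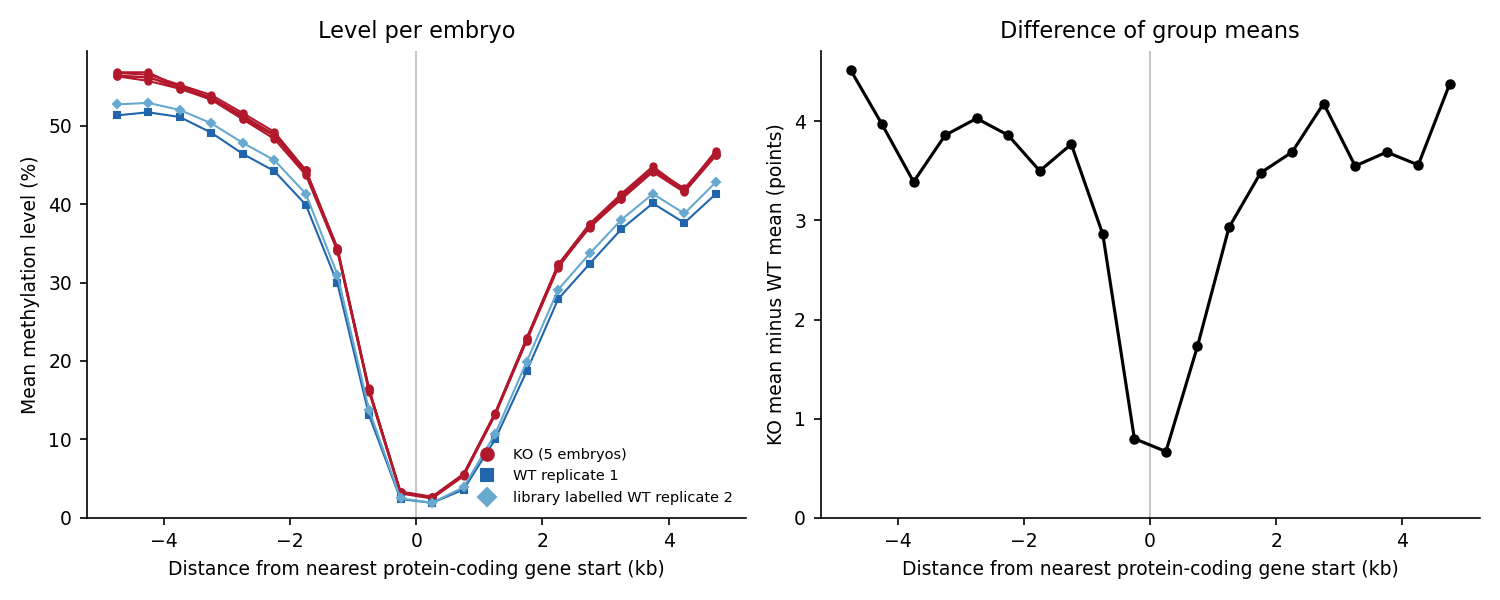
Left, mean methylation level (%) of each embryo in bins of 500 bp by distance (kb) from the nearest protein-coding gene start; right, the KO mean minus the WT mean (points) in the same bins. All KO lines run above both WT lines, and the difference falls to 0.669 points in the 500 bp after the start, against 4.52 points in the bin farthest upstream.

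The genome was then divided into 1 kb tiles. Of 96686 tiles with at least 3 shared CpGs, 69314 varied by an SD of at least 2 points over the 7 embryos and were tested, with a median of 78 reads per embryo. 7769 tiles (11.2% of those tested) were higher in KO at adjusted p under 0.05 and at least 10 points, and will be called hyper. 12 tiles (0.0173%) were lower by the same limits and will be called hypo. The median difference over all tested tiles was 3.85 points, 80.9% of them were higher in KO, and the hyper tiles had a median difference of 17.8 points. In 7070 of the hyper tiles every KO brain lay above both WT libraries, a separation that the call itself favours. Over all 69314 tested tiles it held in 18789, and in 595 every KO brain lay below both. By limma on logits 2172 tiles were hyper, 2158 of them among the 7769 (27.8%). The count also moved with the WT library. In fits with a single WT library the spread came from the KO brains alone, and the lone library was taken to vary as they did. With WT replicate 1 alone 9710 tiles were hyper and 34 hypo, and with the library labelled WT replicate 2 alone 3447 were hyper and 34 hypo, of which 3089 hyper tiles were among the 7769. Over the 7769 tiles the mean level was 61.9 to 63.0% in the KO brains, 39.4% in WT replicate 1 and 46% in the library labelled WT replicate 2, which exceeded WT replicate 1 in 77.2% of them.

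Hyper tiles were spread over all autosomes, from 8.46% of the tested tiles on chromosome 18 to 14.8% on chromosome 11. Within 10 Mb of Tet1, 76 of 742 tested tiles (10.2%) were hyper. Among tested tiles their share was higher where CpG content was higher, up to 40 to 59 CpGs. The filter on SD was taken over KO and WT libraries together, so a tile could pass it through the difference between the groups. Of tiles with fewer than 10 CpGs in the reference sequence 2.74% of those tested were hyper, of tiles with 10 to 19 CpGs 7.99%, of tiles with 20 to 39 CpGs 16.3%, of tiles with 40 to 59 CpGs 26.4% and of tiles with 60 or more 23.3%. The filter on SD removed most CpG-rich tiles. Taken over all measured tiles, the share was 2.61, 7.35, 12, 6.48 and 1.53% in the same order, so that tiles of intermediate CpG content held the highest share. Tiles that touched 1 kb around a gene start were hyper in 24.2% of those tested and 5.97% of those measured, exonic tiles in 12.7 and 9.81%, intronic tiles in 9.23 and 8.16% and intergenic tiles in 8.81 and 7.77%. Tiles of the poorest class held a median of 3 measured CpGs and those of the richest 28, and the part of this difference in the shares was not tested.

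Of the 12 tiles with the largest gains 3 touched the 1 kb around a gene start, 8 others touched an exon and 1 lay between genes. In an exonic tile of Atp8b1, a phospholipid flippase gene (chr18:64531001-64532000, 13 CpGs, nearest gene start that of Nars), the KO brains had 84.6, 86.4, 81.0, 89.6 and 86.9% and the WT libraries 19.3 and 20.7%. The groups were far apart and the WT libraries close to each other, with a difference of 65.7 points (quasi-binomial F test, adjusted p = 1.83e-15). The same tile differed by 64.4 points on 3 ppm and by 46 points on 30 ppm, where it differed by 60.9 points without the libraries that went against their titles. In Celf4, which encodes an RNA-binding protein of neurons (chr18:25478001-25479000, 14 CpGs), KO brains had 80.5 to 89.5% and WT 20 and 27.6%. An exonic tile of Cdh22, a cadherin gene (chr2:165181001-165182000), had 59.2 to 71.2% in KO and 4.74 and 14.5% in WT, a difference of 56.5 points. In Zfp467, a zinc finger gene (chr6:48439001-48440000), KO brains had 79.6 to 89.5%, WT replicate 1 8.71% and the library labelled WT replicate 2 44.1%, so that the 2 WT libraries were far from each other. A tile in Dqx1 that lies 5793 bases from the start of the homeobox gene Tlx2 (chr6:83064001-83065000, 3 CpGs) had 76.2 to 88.9% against 17.9 and 28.1%. The other tiles among the 12 largest were named after C2cd4b, Calhm2, Tmem233, Zfp395, Maf, Tnfaip2 and Etl4, the nearest genes, with differences between 56.0 and 61.0 points. All 12 were higher in KO by 45.1 to 74.7 points on 3 ppm and by 29.5 to 50.9 points on 30 ppm, where the Etl4 tile had adjusted p = 0.0502 (quasi-binomial F test). Without KO replicate 1 of 30 ppm the 12 differed there by 33.8 to 59.2 points, and without WT replicate 2 as well by 37.9 to 63.2 points, with all 12 past both limits in either case (adjusted p = 0.000528 and 1.41e-10 at Etl4).

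Losses were few and smaller. The hypo tile with the largest loss, in an intron of the zinc finger gene Zbtb7c (chr18:75899001-75900000, 3 CpGs), had 71.9, 61.5, 52.4, 29.0 and 42.3% in KO and 80.6 and 87.0% in WT on 21 to 36 reads. The KO brains varied widely among themselves, and the difference of 32.3 points had adjusted p = 0.0265 (quasi-binomial F test). The hypo tile with the most CpGs lay 13307 bases from the start of Tlk2, a kinase gene (chr11:105165001-105166000, 41 CpGs). It had 48.3, 59.7, 51.8, 49.0 and 52.0% in KO and 66.4 and 65.1% in WT, on at least 611 reads per embryo. All KO brains were below both WT libraries, by 13.6 points between the means (adjusted p = 8.27e-06), but limma on logits did not call the tile (adjusted p = 0.246). It was also lower in KO by 10.2 points on 3 ppm (adjusted p = 0.000508) and by 10.9 points on 30 ppm (adjusted p = 0.0165), or by 12.5 points without the libraries that went against their titles. Of the other 11, the 7 tested on 3 ppm and the 8 tested on 30 ppm did not pass both limits there. The 8 also did not pass on 30 ppm without the libraries that went against their titles. Zbtb7c, Peli2 and Bcl11a were tested on neither diet and Mtus2 was not on 3 ppm. With litter as a block 6 of the 12 were no longer called, Zbtb7c (adjusted p = 0.0998), Peli2 (0.0875), Mtus2 (0.144), Sap18b (0.123), Bcl11a (0.0741) and Ergic3 (0.0618). An exonic tile of Tbc1d23, 2159 bases from the start of Nit2, fell by 14.7 points on 0.1 ppm, and on 3 and 30 ppm KO minus WT was 2.34 and 3.75 points. On 30 ppm it was 5.39 points without the libraries that went against their titles. The other 9 fell by 10.1 to 18.2 points on 0.1 ppm. 5 of the 12 were still called after leaving out the library labelled WT replicate 2, and the Ergic3 tile then differed by -0.919 points (adjusted p = 0.869), the Vrk2 tile by -7.53 points (0.461) and the Catsperg1 tile by -9.18 points (0.128). Without WT replicate 1 also 5 were called, and the Mtus2 tile differed by -10.2 points (0.561). The Peli2 and Tlk2 tiles were the 2 called with either WT library alone. By limma 2 of the 12 were called, Sap18b and Bcl11a. In 2 of the 12 hypo tiles, near Vrk2 and at Ergic3, the groups overlapped.

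Promoters were tested as windows of 1 kb to either side of the start of each protein-coding gene. 13257 windows had at least 3 shared CpGs, of which 2557 passed the filter on SD. 572 were hyper, 22.4% of those tested and 4.31% of those measured. 0 windows were hypo by the quasi-binomial F test, where 4 were at least 10 points lower with an unadjusted p under 0.05, and limma on logits called 1. The median difference was 5.41 points over the windows tested and 0.306 points over those measured. In 552 of the 572 every KO brain lay above both WT libraries, a separation that the call itself favours. Of all tested windows 91.1% were higher in KO by the group means. The hyper windows had intermediate CpG content, with a median of 47 CpGs in the reference against 89 over all measured windows. Only windows that passed the filter on SD could be called, and the part of the filter in this difference was not tested. Their median level was 16.3% in WT and 39.3% in KO, and 114 of them went from under 50% in WT to at least 50% in KO. With WT replicate 1 alone 612 windows were hyper and 2 hypo, and with the library labelled WT replicate 2 alone 345 were hyper and 9 hypo.

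Around Tmem233, a transmembrane protein gene (chr5:116082244-116084244, 13 CpGs, 267 to 610 reads), KO brains had 63.7, 67.8, 73.5, 76.3 and 71.6% and WT libraries 8.75 and 16.2%. The difference of 58.1 points was the largest of any promoter (70.6% ± 4.93, SD, against 12.5% ± 5.27, adjusted p = 7.62e-07 by the quasi-binomial F test). At Spaca1, which encodes a membrane protein of the sperm acrosome, KO brains had 41, 62.5, 75.5, 64.2 and 65.7% and WT 10.0 and 14.0%. KO replicate 1 was the lowest KO brain there, but it still lay above both WT libraries. The window of Prm2, which spans Prm1 as well, had 61.9, 71.8, 56.2, 67.3 and 69.2% against 18.1 and 18.4%. Both genes encode protamines, which pack DNA in sperm, and all 10 measured CpGs lay between -612 and -515 from the start of Prm2. At Sycp2l, related to a protein of the meiotic synaptonemal complex, KO brains had 81.3 to 87.2%, WT replicate 1 29.9% and the library labelled WT replicate 2 51.3%. Sgo2b, of the shugoshin family that guards cohesin in meiosis, had 69.2 to 80.8% against 20.8 and 30.8%. It has a close paralogue, Sgo2a, and reads could be shared between them.

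Of the other 7 promoters with the largest gains, Lhcgr, the luteinising hormone receptor, had 78.5, 66.1, 77.0, 74.5 and 70.8% in KO, 15.8% in WT replicate 1 and 42% in the library labelled WT replicate 2. Trim58, a ubiquitin ligase of red cell precursors, had 61.5, 66.8, 63.9, 61.8 and 62.2% in KO against 5.82 and 25.2%. At both, the library labelled WT replicate 2 was intermediate. At Calhm2, of the calcium homeostasis modulator channels, it was not, with 6.01 and 10.6% in WT and 53.5 to 64.2% in KO. Dsc3, a desmosomal cadherin of epithelia, had 43 to 63.6% against 2.17 and 10.5%, and Agmat, a hydrolase of agmatine, 63.3 to 78.7% against 30.7 and 18.0%. Nipsnap3a had 62.1 to 76.8% against 14.3 and 14.7%, and Erich3 81.4 to 84.9% against 27.9 and 42.5%. The 2 HET libraries lay below every KO brain at all 12 promoters, for example at 16.1 and 20.7% at Tmem233 and at 59.3 and 57.1% at Erich3. The 10 of these promoters that were measured on 3 ppm differed there by 45.1 to 61.2 points, and the 11 measured on 30 ppm by 27.1 to 46.2 points, or by 35.3 to 62.2 points without the libraries that went against their titles.

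**Figure D3:**
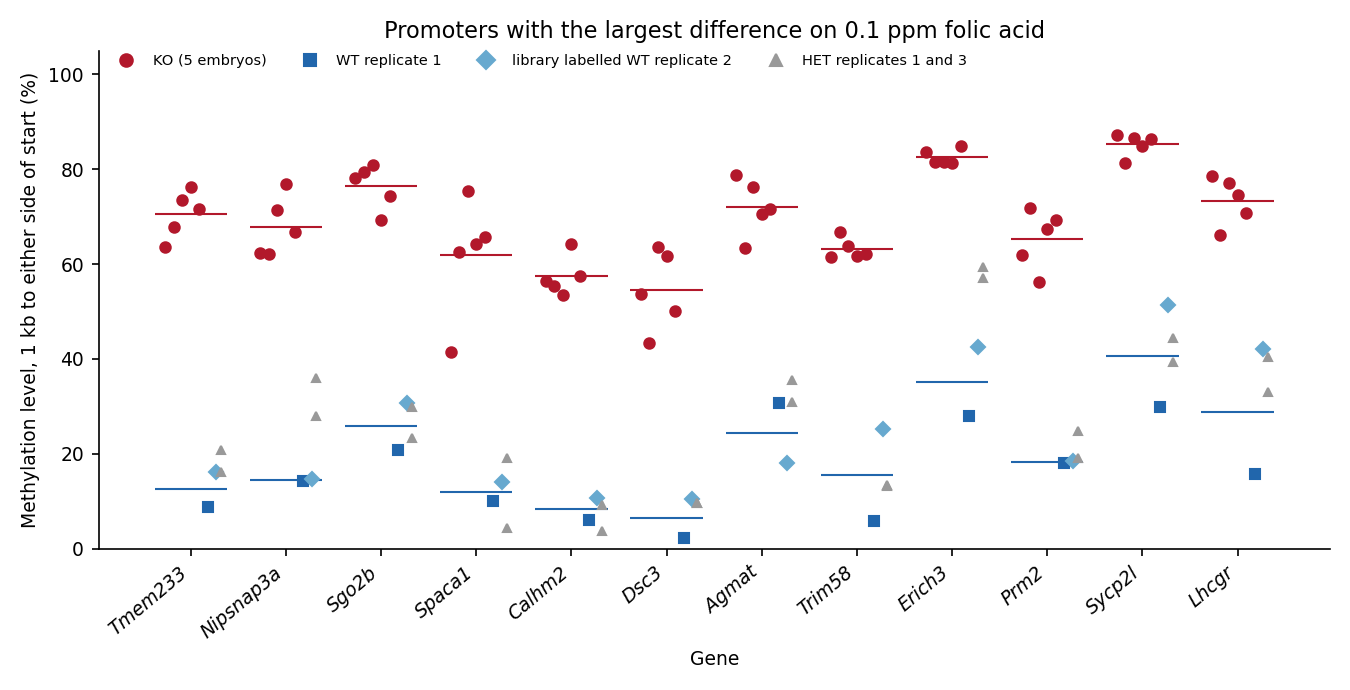
Methylation level (%) of each 0.1 ppm library over the promoter window of 12 genes, in order of the difference (red circles KO, dark square WT replicate 1, light diamond the library labelled WT replicate 2, grey triangles HET replicates 1 and 3; lines are group means of KO and WT). Every KO circle lies above both WT symbols and both triangles, and the light diamond exceeds the dark square most at Lhcgr (42 against 15.8%) and Sycp2l (51.3 against 29.9%).

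Within a promoter the gain covered runs of neighbouring CpGs. At Tmem233 all 13 measured CpGs, from 26 to 283 bases after the start, were higher in KO, by 46.7 to 72.1 points. At Prm2 all 10 CpGs were higher by 39.9 to 58.3 points, and at Lhcgr all 18, from -36 to 205 relative to the start, by 30.8 to 61.9 points. At Trim58 the CpGs from 24 to 161 bases after the start read 0 to 9.09% in WT replicate 1 and 25 to 62.5% in the library labelled WT replicate 2, while from 194 to 279 bases both read at most 11.5%. The WT libraries thus differed over that stretch of the promoter and were close to each other over the next. These CpGs were covered by 6 to 30 reads per library, and neighbouring CpGs share reads.

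**Figure D4:**
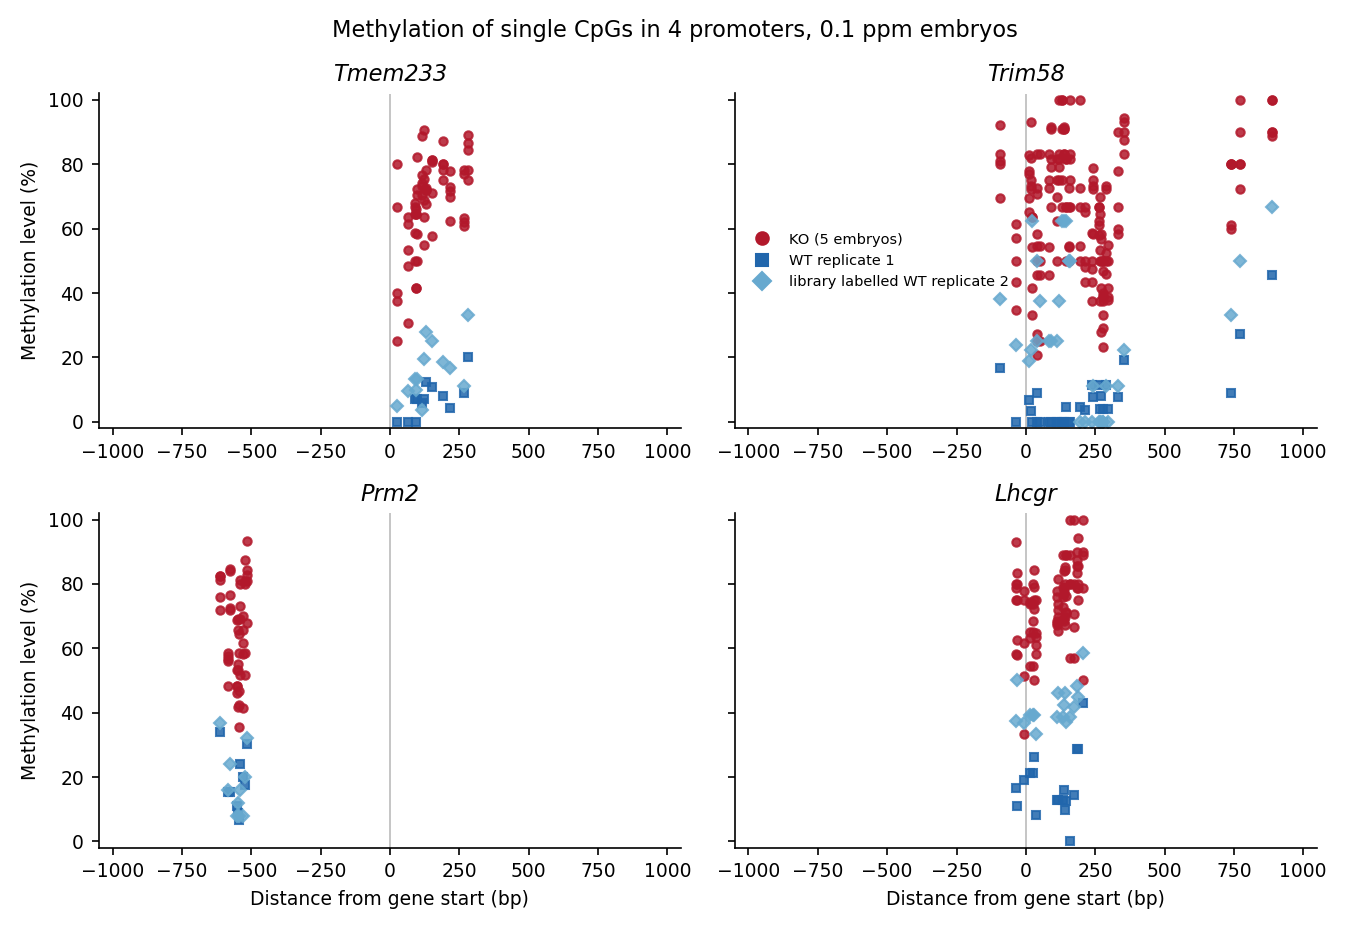
Methylation level (%) of single CpGs against their distance (bp) from the gene start in 4 promoter windows, 1 symbol per library (red circles KO, dark squares WT replicate 1, light diamonds the library labelled WT replicate 2). The KO circles of Tmem233 and Prm2 lie above the WT symbols over the whole measured stretch, and at Lhcgr most light diamonds lie between dark squares and circles.

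Promoters of neural tube and brain patterning genes were mostly free of methylation in both genotypes. Few of them varied by an SD of 2 points, so most could not be called in either direction. Of all promoters 4.31% of those measured and 22.4% of those tested were hyper. Of 32 measured members of a list for cranial neural tube closure 1 was tested and 0 were hyper, and the median difference was 0.159 points, against 0.306 points over all measured promoters. The member nearest to the limits was Fkbp8, whose loss is known to disturb the neural tube, with 5.00, 12.2, 23.0, 12.1 and 6.91% in KO and 6.13 and 6.72% in WT (adjusted p = 0.257 by the quasi-binomial F test). Of 24 measured planar cell polarity genes 2 were tested, of 53 homeobox and PAX factors of brain patterning 1 and of 34 Hox genes 4, and 0 of these 7 were hyper by the quasi-binomial F test or by limma, or at an unadjusted p under 0.05 with 10 points. 0 of 22 measured sonic hedgehog pathway genes were tested. Wnt5a, a ligand of the planar cell polarity pathway, had 11.2 to 15.5% in KO and 6.92 and 6.41% in WT, a difference of 7.20 points that stayed under the limit of 10 points (adjusted p = 0.000839). Hoxd12, of the distal Hox genes, had 6.92 to 9.42% against 2.98 and 2.64%, also under 10 points (difference 4.85 points, adjusted p = 9.49e-05). At Pax8 the levels were 8.47, 5.71, 29.5, 9.00 and 10% in KO and 10 and 5.88% in WT, where KO replicate 3 alone was high (adjusted p = 0.603). Of 31 glutamate, GABA and glycine receptor promoters 6 were tested, of which 0 were hyper by either tool, and 0 at an unadjusted p under 0.05 with 10 points. Grin3b, an NMDA receptor subunit, had 9.99 to 11.9% against 2.83 and 5.99%. Of 48 measured WNT ligands, receptors and inhibitors 5 were tested and 1 was hyper, the ligand Wnt8a (65.2 to 79.7% against 50 and 58.8%). Of 61 axon guidance genes 10 were tested and 1 was hyper, Sema4a, a semaphorin (75.6 to 93.3% against 56.2 and 78.9%), where the groups overlapped and the call was lost with litter as a block (adjusted p = 0.236). Of 29 proneural and progenitor bHLH factors 4 were tested and 1 was hyper, Ascl2 (12.9 to 14.9% against 3.29 and 4.17%). Each of these lists had 1 call, which is 2.08, 1.64 and 3.45% of the measured and 20, 10 and 25% of the tested members of the WNT, axon guidance and bHLH lists. With the library labelled WT replicate 2 as the only WT library, 0 members of the last 3 lists were hyper.

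Collagen and muscle promoters held higher shares of hyper windows than the 4.31% of all measured and the 22.4% of all tested promoters. Of 29 measured collagen genes 12 were tested and 9 were hyper (31.0% of measured, 75% of tested), with a median difference of 2.27 points over the list. Col11a2, a cartilage collagen chain, had 51.9, 64.7, 64.5, 61.7 and 58.9% in KO and 12.1 and 21.1% in WT (difference 44 points, adjusted p = 3.36e-06 by the quasi-binomial F test). Col6a5, Col8a1 and Col5a3 differed by 37.3, 29.1 and 24.5 points, and Col5a3 was nearly free of methylation in WT (0.299 and 1.98%). Of 53 measured skeletal and cardiac muscle genes 26 were tested and 9 were hyper (17.0 and 34.6%), with a median difference of 0.999 points. Acta1, the skeletal muscle actin, had 76.9, 69.5, 75.7, 65.3 and 72.9% against 27.4 and 36.8%. Myoz1, of the Z-disc, and Myl1, a myosin light chain, differed by 31.0 and 22.8 points. Of 40 mesoderm and mesenchyme regulators 8 were tested and 3 were hyper, Meox1 (45.1 to 57.4% against 18.5 and 31.0%), Mesp2 and Twist2, which pattern somites and mesenchyme. With CpGs covered at least 10 times, Twist2 differed by 8.53 points, under the limit of 10 points. With litter as a block Mesp2 was no longer called (adjusted p = 0.0862), and the collagen, muscle and mesoderm counts were 8, 8 and 2. Without the library labelled WT replicate 2 the collagen, muscle and mesoderm counts were 9, 10 and 2, and with it as the only WT library 6, 7 and 1.

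Among 45 measured germ line genes that methylation silences, 36 were tested and 5 were hyper, among them Spaca1 and Sycp2l given above. That is 11.1% of the measured members, above the 4.31% of all measured promoters, but 13.9% of the tested members, below the 22.4% of all tested promoters. The median WT level of the list was 79.5%, and most of its promoters were already methylated in WT brains. Tdrd6, a tudor domain protein of germ cells, rose from 6.37 and 13.1% in WT to between 20 and 26.7% in KO, and Dnmt3l, the cofactor of de novo methylation in germ cells, had 70.9 to 82.4% against 54.3 and 68.2%. Dnmt3l and Zbtb38, a reader of methylated DNA (48.5 to 60.4% against 40.4 and 37.6%), were the 2 hyper members of 22 measured enzymes and readers of DNA methylation (9.09%), of which 4 were tested. With litter as a block both lost their call (adjusted p = 0.1 and 0.0793), which left 0 in that list and 4 in the germ line list. Of 37 imprinted genes 19 were tested and 2 were hyper (5.41% of measured, 10.5% of tested). Grb10, a growth factor receptor adaptor, had 26.3 to 39.6% in KO and 18.8 and 21.1% in WT, and Kcnq1, a potassium channel, 15.4 to 30.0% against 6.10 and 4.72%. Of 22 pluripotency genes 8 were tested and 1 was hyper (4.55 and 12.5%), Lefty1, a NODAL inhibitor (45.2 to 55.8% against 30.3 and 29.3%). With the library labelled WT replicate 2 as the only WT library the hyper counts of the germ line, DNA methylation, imprinted and pluripotency lists were 4, 0, 1 and 0, and without it 6, 2, 3 and 1.

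In folate and one-carbon metabolism 4 of 39 measured promoters were hyper (10.3%, against 4.31% of all measured promoters), or 30.8% of the 13 tested against 22.4%, with a median difference of 0.351 points over the list. Dmgdh and Bhmt2 share 1 start region, so that 1 set of 18 CpGs gave both calls and the 4 rest on 3 start regions. It had 23.0, 25.9, 22.5, 25.3 and 24.3% in KO and 8.70 and 8.20% in WT, a difference of 15.8 points (adjusted p = 9.44e-06 by the quasi-binomial F test), and the groups were well apart. Dmgdh oxidises dimethylglycine, and Bhmt2 uses S-methylmethionine to methylate homocysteine. Aldh1l2, the mitochondrial 10-formyltetrahydrofolate dehydrogenase, had 27.7, 18, 17.9, 28.1 and 27.4% against 10 and 11.8%. Aldh1l1, its cytosolic counterpart, had 79.7 to 90.8% against 72.8 and 76.8%, and its difference on 3 ppm had adjusted p = 0.131. With litter as a block its call was lost (adjusted p = 0.0954), which left 3 in the list. Without the library labelled WT replicate 2 the count was 5, and with it as the only WT library 3. Of 59 FGF, BMP and TGF-beta genes 2 were hyper (3.39% of measured and 25% of tested members, Fgf1 and Bmp8b), and of 251 solute carriers 15 (5.98 and 22.4%, led by Slc46a2), near the shares of all promoters by either count. Of 283 Zfp genes 9 were hyper (3.18 and 19%, led by Zfp488), of which 5 were hyper with the library labelled WT replicate 2 as the only WT library. Of 73 potassium channel genes 6 were hyper (8.22% of measured against 4.31%, but 26.1% of tested against 22.4%), led by Kcnab1, a channel beta subunit, with 42, 44.3, 31.9, 30.6 and 47.1% in KO and 2.23 and 2.83% in WT; with the library labelled WT replicate 2 as the only WT library 4 were hyper. Of 28 measured clustered protocadherins 25 were tested and 1 was hyper (3.57% of measured against 4.31%, but 4% of tested against 22.4%), Pcdhac1 (32.7 to 39.9% against 17.2 and 26.2%), and the median difference of that list was 2.92 points.

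The same tiles were then read in embryos that the comparison had not used. The 3 ppm KO and WT embryos, fitted alone, gave 10591 hyper tiles (16.3% of those tested there). 9624 of these were tested on 0.1 ppm, where 97.6% were higher in KO and 5308 (55.2%) were hyper, while 0 were hypo. Conversely, 6902 of the 0.1 ppm hyper tiles were tested on 3 ppm and 76.9% of them were hyper there. The median difference of the 9624 tiles was 16.5 points on 3 ppm, which chose them, and 13.8 points on 0.1 ppm. Tiles with 40 points or more on 3 ppm had a median of 39.4 points on 0.1 ppm, and 99.3% of them were hyper. The 30 ppm embryos gave 3699 hyper tiles (5.66% of those tested on 30 ppm), of which 3469 were tested on 0.1 ppm and 79.5% were hyper there, as a share of a shorter list. Conversely, of the 6990 hyper tiles of 0.1 ppm that were tested on 30 ppm 39.5% were hyper there, and without the libraries that went against their titles 75.2% of 7009. Without KO replicate 1 of 30 ppm that diet gave 7718 hyper tiles (11.8% of those tested on it), and 66.1% of the 7070 tested on 0.1 ppm were hyper there. Without WT replicate 2 of 30 ppm as well it gave 10429 (15.9%), and 56.0% of 9415 were hyper on 0.1 ppm. The shares of 0.1 ppm hyper tiles that were hyper on 30 ppm thus rose along with the share over all tiles tested there. The libraries left out had been singled out by their methylation levels, so this rise follows in part from that choice.

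**Figure D5:**
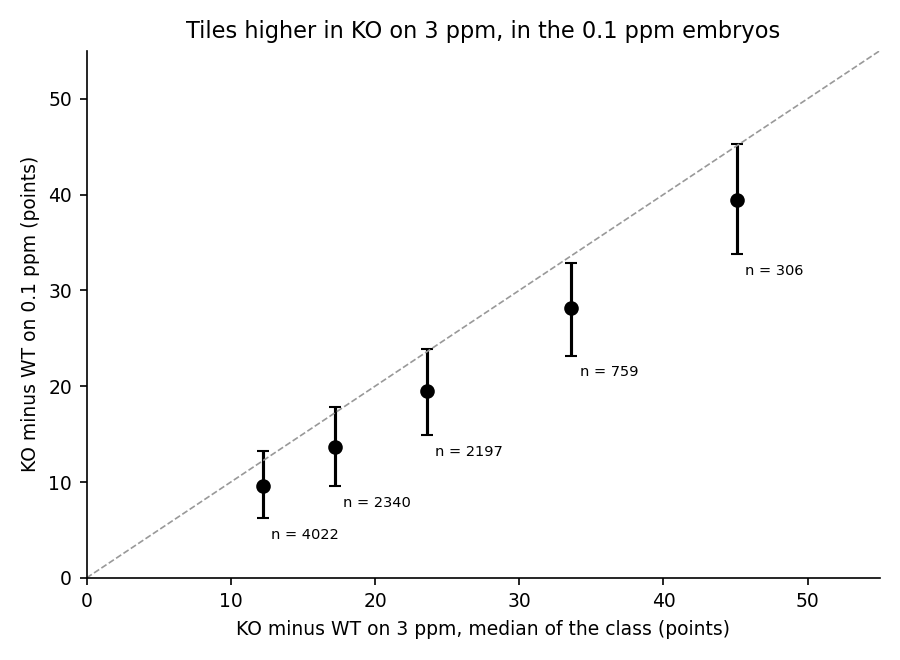
KO minus WT (points) on 0.1 ppm against that on 3 ppm for 9624 tiles that were hyper on 3 ppm, in 5 classes by their 3 ppm difference (points are medians, bars the quartiles on 0.1 ppm, n the number of tiles, and the dashed line marks equal differences). Medians on 0.1 ppm run from 9.63 to 39.4 points and lie below the line in each class; the tiles were chosen on 3 ppm.

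Any difference in the KO effect between 0.1 ppm and 3 ppm was tested as the interaction of genotype with diet. 0 of 58052 tiles passed adjusted p under 0.05 (quasi-binomial F test), with a smallest adjusted p of 0.323. 2921 tiles (5.03%) had an unadjusted p under 0.05, of which 1356 had the larger effect on 0.1 ppm and 1565 on 3 ppm. After leaving out the library labelled WT replicate 2 the count was again 0, with a smallest adjusted p of 0.0807, and of the 3431 tiles at unadjusted p under 0.05 then 2274 had the larger effect on 0.1 ppm. The direction of the nominal differences between diets thus turned on that library. The median effect over all tiles so tested was 3.64 points on 0.1 ppm and 3.61 points on 3 ppm, and 4.24 and 3.63 points without it. Taken tile by tile, the median of the 0.1 ppm effect minus the 3 ppm effect was -0.354 points, and 0.298 points without it. A count of 0 does not show that the effects were equal.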

How the data were processed

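Libraries of single brains were digested with MspI and TaqI and converted by oxidative bisulfite. By the submitters' processing notes the authors used Trim Galore 0.6.10, Bismark 0.24.1 on mm10 and UMI-tools. The deposited tables list each CpG with its methylated fraction and its read count, at least 2. Fraction times count was whole in all 36 tables (within 1e-11), so methylated counts were recovered. The authors' lists of differentially methylated regions were not used. Intervals cover counting error only.

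CpGs covered at least 5 times in every library compared were kept (autosomes, coverage 12.6 to 22.1 reads on average). Reads were summed over 1 kb tiles, or 1000 bases to either side of each protein-coding gene start (GENCODE vM21). Regions with at least 3 CpGs and an SD of at least 2 points were tested by a quasi-binomial logistic fit with 1 dispersion per region, moderated as in limma (3.58.1) and held at 1 or above, with an F test and Benjamini-Hochberg adjustment, tested on simulated data. A region was called at adjusted p under 0.05 and 10 points between group means. Distinct embryos are the replicates. Replicate numbers follow the accession order and pair no samples; litters from the titles gave the block. Named were Tet1, the 12 hyper tiles and 12 hyper promoters of largest difference without overlap of the groups, 1 tile per nearest gene, outside 10 Mb of Tet1, all hypo tiles, and up to 4 hyper members of each gene list, or the member nearest to the limits where none was hyper; some of these are not reported here. The comparison, the members and the gene lists were chosen with earlier results of these data known. HET replicate 2, the shallowest library, was not used here, as in the study.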

Additional observations from a re-analysis of the deposited data

Results flagged for a closer look

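Of 92 values of the 5 KO embryos that were examined, 2 had a single embryo apart from the other 4 by more than Dixon's critical value of 0.71. At the promoter of Pax8, KO replicate 3 had 29.5%, and the other KO embryos 5.71 to 10.0%. At the promoter of Hoxd12, KO replicate 3 had 9.42% and the other KO embryos 6.92 to 7.40%. About 1 in 20 such sets is picked out by chance, which is 4.6 of 92. KO replicate 3 is labelled NTD, and KO replicate 4, from the same litter and with the same label, read 9.00% and 6.92%.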

How the results depend on the processing

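The mean difference (2.74 points) stayed above 0 in all alternatives tried. It was 3.41 points with the CpGs of each embryo (exact permutation p = 0.143), 2.91 points without the KO embryos labelled NTD (p = 0.1, the smallest possible by exact permutation), and 2.30 to 2.83 points or 3.26 points with single embryos left out, where no p under 0.05 is possible. The mean of the within-litter differences was 2.68 points (replicate block). Hyper tiles numbered 4823 with at least 5 CpGs, 3025 at 20 points and 2172 by limma on logits, and 3447 to 9710 with 1 embryo left out. Hypo tiles numbered 4 at coverage 10, 1 at 20 points, 59 without overdispersion, 4 by limma, and 12 to 34 with 1 embryo left out. Hyper promoters numbered 235 at 20 points and 345 to 612 with 1 embryo left out, the lowest without WT replicate 1. Hypo promoters numbered 7 without overdispersion, 1 by limma, 1 with all groups sharing the dispersion, 3 with litter as replicate block, and 0 to 9 with 1 embryo left out. Fewer tiles were tested with at least 5 CpGs (29835) than in the main fit (69314). The cause of these changes was not tested. With litter as replicate block 5226 tiles and 464 promoters were hyper. The 12 named hyper tiles, chosen for their large gains in these data, kept their call in all 208 refits that tested them. The tiles of Tlx2, Calhm2, Zfp395, Maf, Tnfaip2 and Etl4 were not tested with at least 5 CpGs. Those of Tnfaip2 and Etl4 were also not tested at coverage 10. The 56 promoters higher in KO kept their side of the limits in 925 of 984 refits. The 12 hypo tiles lost their call in 73 of 204, 11 of them at 20 points and 10 by limma. No named region changed direction. List counts without either WT library or with the litter block, and the 30 ppm fits without single libraries, were added after seeing the data. Depth limits single tiles to a median of 78 reads per embryo.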
